A study of Mus musculus with 9 samples.

Results

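The pseudogene transcripts described here numbered 535 and belonged to 380 genes, out of 24718 transcripts in the deposited table of other noncoding RNA. They were chosen by gene type in the GENCODE M21 annotation (unprocessed, transcribed unprocessed or transcribed processed pseudogene) and by level, the limit being a mean over the 9 libraries of 0.1 FPKM or more. FPKM is the number of read pairs assigned to a transcript, per kilobase of its length and scaled to library depth. The choice therefore rests on the level itself, which is given below as a description. The groups of mice were not used in the limit, but the set was chosen with earlier results of these data known. The 3 gene types held 3956 transcripts of 3185 genes in the table, of which 2573 were listed at 0 in all 9 libraries and 848 had a mean above 0 and below 0.1 FPKM. Genes of the Ebf2 and Fkbp5 loci were to be left out, and none of these transcripts lay within 100 kb of either gene.

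Pseudogenes are copies of genes that have lost the ability to make the full protein of the gene they came from, or are thought to have lost it. An unprocessed pseudogene comes from duplication of a stretch of DNA and keeps the exons and introns of its source. A processed pseudogene comes from an mRNA that was copied back into the genome, so it usually lacks introns and sits on another chromosome. The word transcribed is added in the annotation where RNA from the copy is on record.

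RNA of the trigeminal ganglion (TG), which holds the cell bodies of the sensory neurons of the face and jaw, was sequenced after injection into the temporomandibular joint (TMJ). The 9 libraries came from wild-type (WT) male C57BL/6 mice and formed 3 groups of 3, each library being a pool of ganglia from 3 mice. The saline group (replicates 1 to 3) received 10 µl of saline and carries the label day 3. The CFA3D (replicates 1 to 3) and CFA6D (replicates 4 to 6) groups received 10 µl of complete Freund's adjuvant (CFA) at 5 mg/ml, an oil emulsion with killed mycobacteria that inflames the joint, and were taken on day 3 and day 6. No saline group of day 6 is in the design, so CFA6D was compared with saline of another day. P-values measure the spread between pools of animals.

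The depth estimated from the spacing of low FPKM values was 30.0 M to 42.2 M read pairs per library (M, 10 to the power of 6), at which 1 read pair per kb equals 0.0237 to 0.0333 FPKM. All 10 sensory neuron markers, 5 satellite glial markers and 5 Schwann cell markers were detected, with summed levels of 1379 to 2077, 586 to 751 and 2579 to 3448 FPKM in the libraries. Some libraries stood apart in tissue that is not part of the ganglion. The 6 pituitary genes summed to 10656 FPKM in saline replicate 3, against a lowest value of 8.89 in that group, to 14.2 to 20.7 in CFA3D and to 43.0 to 1115 in CFA6D. The 6 marrow granulocyte genes summed to 2598 FPKM in CFA6D replicate 6, against a lowest value of 118 in that group, 46.6 to 116 in saline and 23.3 to 70.1 in CFA3D. The skeletal muscle and adipocyte lists reached 152 and 147 FPKM in saline and at most 8.78 and 7.57 FPKM in CFA3D, and in CFA6D they reached 67.6 (replicate 6) and 12.3 FPKM. The macrophage and red cell lists ranged from 37.5 to 94.9 and from 1667 to 5789 FPKM. Over the pseudogene transcripts, the median correlation of a library with the other 8 was 0.908 to 0.919 on the log2 scale, a description across transcripts that are not independent.

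Most of these pseudogene transcripts were low. The median of the means was 0.487 FPKM, 120 transcripts lay between 0.1 and 0.2 FPKM, 250 between 0.2 and 1, 138 between 1 and 10, 20 between 10 and 100, and 7 above 100 FPKM. The median transcript was 822 bases long and had about 16.4 read pairs per library, and 207 transcripts had fewer than 10. Values above 0 in all 9 libraries were found for 473 of the 535 transcripts. A mean of at least 0.1 FPKM was reached in each of the 3 groups by 467 transcripts, in 2 groups by 44, only in saline by 9, only in CFA3D by 5 and only in CFA6D by 10. Just inside the limit were A930017M01Rik (0.101 FPKM), 9130208D14Rik (0.101 FPKM) and Olfr755-ps1 (0.103 FPKM), and just outside it were Gm47062 (0.0997 FPKM), Gm18352 (0.0992 FPKM) and Gm9322 (0.0990 FPKM).

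**Figure D1:**
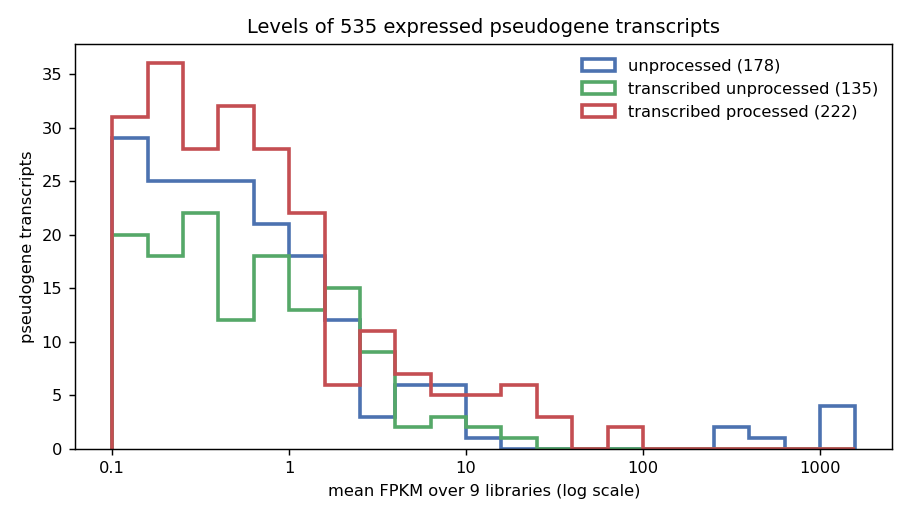
Number of pseudogene transcripts (vertical axis) by mean FPKM over 9 libraries (horizontal axis, log scale), for the 3 gene types. The 3 curves peak below 1 FPKM and share a median near 0.5 FPKM, and the 7 transcripts above 100 FPKM are copies of mitochondrial genes.

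The gene types were above the limit at different rates and had similar medians. Unprocessed pseudogenes gave 178 of 2640 transcripts (6.74%), transcribed unprocessed pseudogenes 135 of 707 (19.1%) and transcribed processed pseudogenes 222 of 609 (36.5%). For plain processed pseudogenes, which were not part of the set, the share was 2746 of 9937 (27.6%). The medians of the 3 types were 0.471, 0.485 and 0.502 FPKM. A single exon was annotated for 74.8% of the transcribed processed, 51.1% of the unprocessed and 12.6% of the transcribed unprocessed transcripts. Several transcripts passed for 102 of the 380 genes, up to 11 for Ppp4r1l-ps.

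Likeness to a coding gene was measured by aligning each pseudogene transcript with the transcripts of all protein-coding genes, and 463 of the 535 had a match of at least 100 bases and 80% identity. Over the aligned bases, the closest match was at least 99% identical for 128 transcripts, 95 to 99% for 104 and 80 to 95% for 231, while 72 had none. The median level was lower in that order, from 1.25 FPKM through 0.489 and 0.378 to 0.339 FPKM. Some transcripts aligned over at least 90% of their length to an expressed coding gene. Their FPKM was at the median 0.184 of that of the coding gene for 85 transcripts of at least 99% identity. It was 0.102 for 56 transcripts of 95 to 99%, and 0.0350 for 86 less alike transcripts. These are descriptions, since a read from a stretch without differences can be assigned to either place. Exon bases were shared with a coding gene on the same strand by 32 transcripts, and 91 overlapped the span of such a gene. Coding genes at the same place were not left out of the matches, so some matches are shared exons and not copies. All 1090 bases of Gm15725 lie in exons of Lrrc58, and all 217 of Gm26712 in exons of Pyurf, their closest matches.

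The 7 highest pseudogene transcripts were nuclear copies of mitochondrial genes, which encode subunits of the respiratory chain and of ATP synthase. They lie together in a block of 4663 bases on the minus strand, chr1:24611535-24616197 (GRCm38), and are annotated as unprocessed pseudogenes. From the most to the least abundant they were Gm28437 (like mt-Co3, mean 1335 FPKM), Gm28661 (mt-Co2, 1308 FPKM), Gm29216 (mt-Co1, 1185 FPKM), Gm10925 (mt-Atp6, 1064 FPKM), Gm10222 (mt-Nd4l, 476 FPKM), Gm28438 (mt-Nd3, 323 FPKM) and Gm28439 (mt-Nd4, 280 FPKM). Of these, 5 matched the mitochondrial gene without a difference over their whole length, and Gm29216 and Gm28438 each had 1 differing base in the aligned 483 and 345 bases. A further pair of copies, Gm13341 (like mt-Co2) and Gm13340 (like mt-Co1), lies on chromosome 2 and was 95.9% and 97.6% identical. The windows of 90 coding bases with the most differences are shown for a copy of each kind beside its mitochondrial gene, 5′ to 3′, with the differing bases in capitals, because the 7 abundant copies had at most 1 difference. They are chr1:24613030-24613119 (minus) for Gm28438, chrM:9459-9548 (plus) for mt-Nd3, chr2:22587433-22587522 (minus) for Gm13341 and chrM:7465-7554 (plus) for mt-Co2, from the GENCODE M21 transcripts (GRCm38).
Gm28438: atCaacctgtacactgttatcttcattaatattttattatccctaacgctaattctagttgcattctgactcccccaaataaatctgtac
mt-Nd3: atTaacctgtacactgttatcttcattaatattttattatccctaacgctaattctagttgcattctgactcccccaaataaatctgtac
Gm13341: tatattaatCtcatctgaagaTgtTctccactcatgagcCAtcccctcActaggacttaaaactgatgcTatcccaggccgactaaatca
mt-Co2: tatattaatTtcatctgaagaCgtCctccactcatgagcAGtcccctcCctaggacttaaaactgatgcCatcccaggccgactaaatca

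Of the 5 copies without differences, 3 carried nearly the same value as the mitochondrial gene in each library. The ratio of Gm28437 to mt-Co3 was 0.999 to 1.00 over the 9 libraries, that of Gm28661 to mt-Co2 was 1.00, and that of Gm10222 to mt-Nd4l was 0.993 to 0.996. Gm28438, with its single differing base, stood at 0.965 to 0.980 of mt-Nd3. The other 2 copies without differences departed from 1, and so did Gm29216: Gm10925 was 3.23 to 3.58 times mt-Atp6, Gm28439 0.420 to 0.465 of mt-Nd4, and Gm29216 0.341 to 0.462 of mt-Co1. The chromosome 2 copies were far lower, Gm13341 at 0.00181 to 0.00370 of mt-Co2 (mean 3.60 FPKM) and Gm13340 at most at 0.000835 of mt-Co1 (mean 1.84 FPKM). Whether any RNA of the chromosome 1 block was present apart from that of the mitochondria cannot be told apart in these values.

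**Figure D2:**
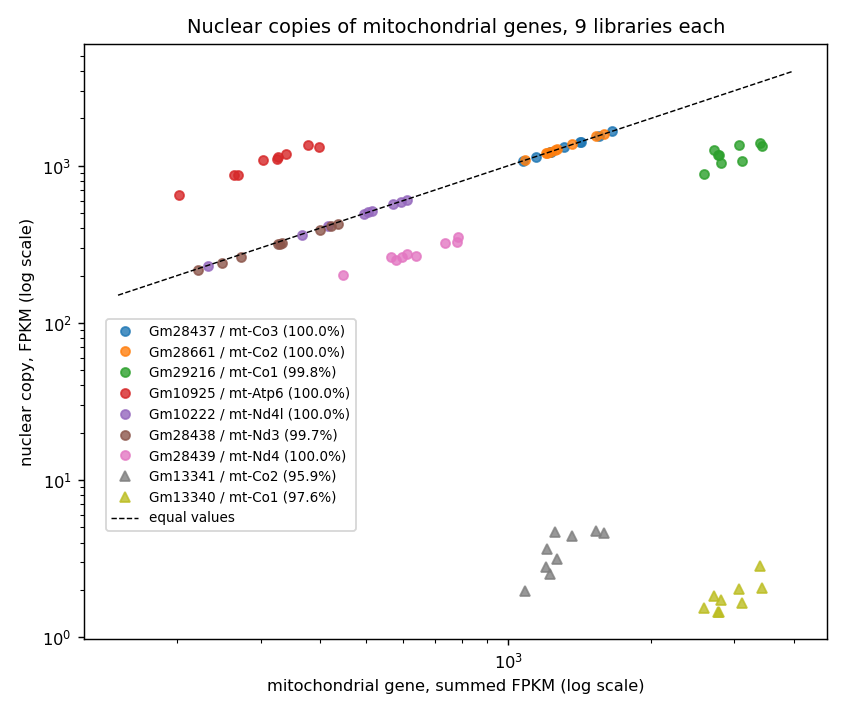
FPKM of 9 nuclear copies (vertical axis, log scale) against the summed FPKM of the closest mitochondrial gene (horizontal axis, log scale), a point per library. Gm28437, Gm28661, Gm10222 and Gm28438 lie on or just under the line of equal values, and the chromosome 2 copies (triangles) lie below 5 FPKM.

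The mitochondrial copies made up 80.5% to 87.5% of the summed FPKM of the pseudogene transcripts. In saline the copies summed to 4416, 7244 and 6632 FPKM, in CFA3D to 5272, 5546 and 7193 FPKM, and in CFA6D to 5730, 5959 and 5793 FPKM, so the groups overlapped. None of the 9 copies was called in any comparison, and the log2 differences of the 7 highest lay between -0.25 and 0.21. Without these copies, the other pseudogene transcripts summed to 1020 to 1072 FPKM in the 9 libraries.

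After the mitochondrial copies the highest transcripts were retrocopies of housekeeping genes. Rpl37rt, a copy of the ribosomal protein gene Rpl37, had a mean of 93.3 FPKM, Gm1821, a copy of the ubiquitin gene Ubb, 90.2 FPKM, and Rps26-ps1, a copy of the ribosomal protein gene Rps26, 34.8 FPKM. In saline Rpl37rt stood at 72.7, 99.6 and 130 FPKM, in CFA3D at 83.6, 83.1 and 93.8 FPKM, and in CFA6D at 95.6, 84.3 and 97.1 FPKM, which overlapped. Copies of ribosomal protein genes numbered 49 transcripts of 34 genes, with a median of 0.414 FPKM. Of the 49, 1 was called in CFA3D against saline, 0 in CFA6D against saline and 1 in CFA6D against CFA3D. The shares called over all transcripts tested were 2.27%, 2.84% and 2.52% in that order, and the calls are given below.

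Differences between groups were fitted with limma on log2(FPKM + 0.1) over all 7989 transcripts of the table with a mean of at least 0.1 FPKM. Transcripts past both an unadjusted p of 0.05 and a log2 difference of 1 in size, a limit added here, are referred to as called. With the pseudocount, the differences of low transcripts are understated. In bulk RNA, fewer cells of a type and less RNA per cell cannot be told apart.

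CFA3D against saline asked which pseudogene transcripts differed on the third day of joint inflammation. There were 13 called transcripts of 535 (2.43%), 8 higher and 5 lower in CFA3D, against 2.27% of all transcripts tested (1.28% higher and 0.989% lower). With the p cutoff alone, 30 pseudogene transcripts passed (5.61%), against 4.44% of all. With Benjamini-Hochberg adjustment in limma, 0 of the 7989 transcripts passed 0.05. The median log2 difference was 0.01 over the pseudogene transcripts and 0.02 over all. The share called was near that of the whole table.

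CFA6D against saline asked the same for the later day, and CFA6D against CFA3D asked what changed between the days. In CFA6D against saline 7 were called (1.31%), 3 higher and 4 lower, against 2.84% of all transcripts (1.61% higher and 1.23% lower). The share at p under 0.05 alone was 26 of 535 (4.86%), against 6.37% of all. In CFA6D against CFA3D 8 were called (1.50%), 2 higher and 6 lower, against 2.52% of all (1.26% higher and 1.25% lower), and 26 passed p under 0.05 alone, against 5.44%. At an adjusted p under 0.05 there was 1 pseudogene transcript in each of these comparisons, the same transcript of Nlrp5-ps, among 4 of all transcripts (0.0501%) in each. Apart from Nlrp5-ps, the limma adjusted p of the called transcripts was 0.999 in CFA3D against saline, 0.683 to 0.743 in CFA6D against saline and 0.736 to 0.871 in CFA6D against CFA3D. The CFA groups share the saline libraries, and the CFA6D comparisons share the CFA6D libraries. The 20 called transcripts belonged to 19 genes, and 9 of the 28 differences called were called in every fit that left out 1 library.

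**Figure D3:**
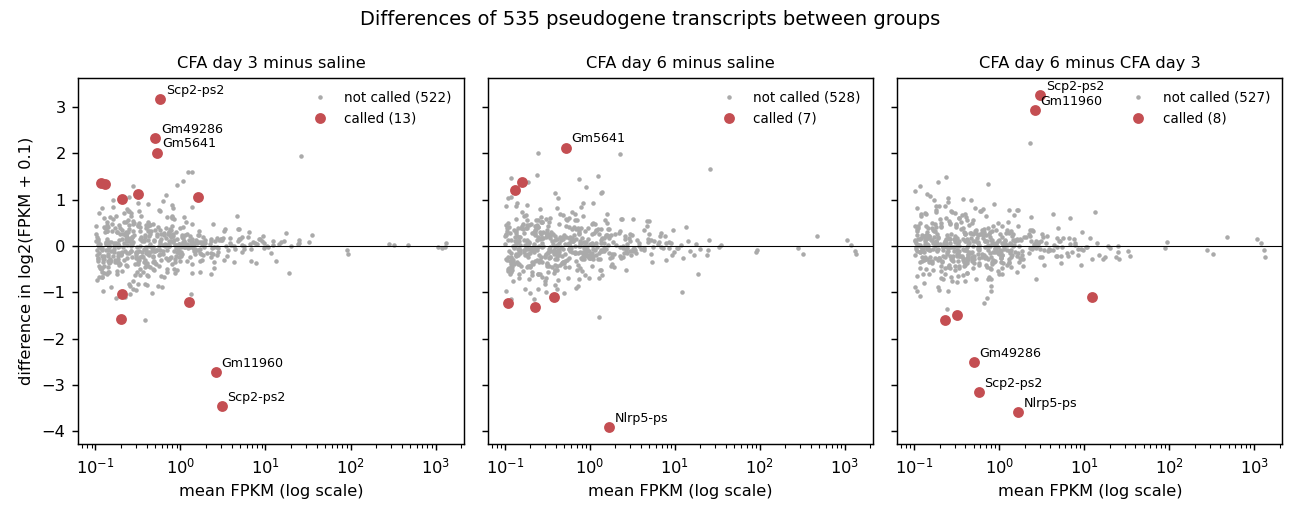
Difference in log2(FPKM + 0.1) between groups (vertical axis) against mean FPKM (horizontal axis, log scale) for 535 pseudogene transcripts in the 3 comparisons, with called transcripts as large points and gene names at differences of 2 or more. The transcript of Nlrp5-ps at -3.92 and -3.59 is the lowest point of the CFA6D panels, and the transcripts above 100 FPKM lie near 0.

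Nlrp5-ps is an unprocessed copy of Nlrp5, which encodes a protein of the egg and the early embryo from the NLR family. It lies on the minus strand of chromosome 7, and its transcript ENSMUST00000173220 (chr7:14563299-14609339, 10 exons, 1294 bases) aligned with Nlrp5 over 688 bases at 97.8% identity, with 15 mismatches and no gap. The 228 codons aligned, of 1111 in Nlrp5, held no gained stop codon, and the other codons were not compared. The window of 90 coding bases with the most differences is shown, from chr7:14581015-14581104 (minus) for Nlrp5-ps and chr7:23435747-23435836 (plus) for Nlrp5 (GRCm38), because the copy and not the coding gene was detected.
Nlrp5-ps: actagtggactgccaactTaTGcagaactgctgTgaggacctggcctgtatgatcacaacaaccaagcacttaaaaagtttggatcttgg
Nlrp5: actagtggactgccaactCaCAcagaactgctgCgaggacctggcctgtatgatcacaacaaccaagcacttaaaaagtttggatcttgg

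This transcript stood at 2.28, 2.56 and 3.41 FPKM in saline, at 2.54, 1.49 and 2.58 FPKM in CFA3D, and at 0, 0.105 and 0.215 FPKM in CFA6D. The 3 CFA6D libraries lay below the 6 others, and saline and CFA3D overlapped. On the log2 scale it was lower in CFA6D than in saline by -3.92 ± 0.40 (SE, limma adjusted p = 0.0114) and lower than in CFA3D by -3.59 ± 0.40 (limma adjusted p = 0.0171). CFA3D and saline differed by -0.33 ± 0.40, with a limma adjusted p of 0.999. Because Nlrp5-ps was named with earlier results of these data known, these p-values are not independent support. The difference from saline was -3.76 without saline replicate 3, the library with the most pituitary RNA. It was -4.30 without CFA6D replicate 6, the library with the most granulocyte RNA. Leaving out 1 library removes neither tissue, since the pituitary genes also summed to 43.0 to 1115 FPKM in CFA6D. The granulocyte genes were at 118 FPKM or more in each CFA6D library and at most at 116 FPKM in the other groups. A part of these tissues in the difference was not tested. CFA6D replicate 4 was listed at 0, and without it the difference was -3.47.

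The other Nlrp5-ps transcripts did not show this pattern. ENSMUST00000173220 shared all of its 1294 exon bases with other transcripts of the gene. ENSMUST00000044683, which has 13 exons, stood at 1.01, 0.351 and 0.479 FPKM in saline, at 1.06, 0.881 and 0.833 FPKM in CFA3D, and at 0.398, 1.04 and 1.07 FPKM in CFA6D. The groups overlapped in this transcript, and in ENSMUST00000190796, which ranged from 0 to 0.442 FPKM. The remaining transcript, ENSMUST00000173766, was at most at 0.108 FPKM and was not in the set.

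The sum over all Nlrp5-ps transcripts was also lowest in CFA6D. It was 3.74, 2.99 and 4.09 FPKM in saline, 4.01, 2.41 and 3.77 FPKM in CFA3D and 0.398, 1.50 and 1.45 FPKM in CFA6D, so the CFA6D libraries again lay below the others. The gene sum was lower in CFA6D by -1.78 ± 0.41 against saline (limma adjusted p = 0.587), and passed the call rule. The coding gene Nlrp5 was at most at 0.0135 FPKM, and the egg genes Nlrp2, Nlrp4c and Nlrp9a were listed at 0 in all 9 libraries. The 10 egg and early embryo genes summed to 3.01 to 4.42 FPKM. Most of this sum was Tle6, at 1.94 to 3.32 FPKM, so it is not a level of the list as a whole. Khdc3, an egg gene of the same list, was called higher in CFA6D than in saline and CFA3D. It stood at 0.446, 0.340 and 1.45 FPKM in CFA6D and at 0.0759 to 0.256 FPKM in the other libraries. Its highest value was in CFA6D replicate 6, the library with the most granulocyte RNA, and fits that left out 1 library were not run for it. On the same strand, 55 exon bases of ENSMUST00000173220 were shared with the vomeronasal receptor gene Vmn1r90, whose transcripts were at most at 0.0934 FPKM.

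**Figure D4:**
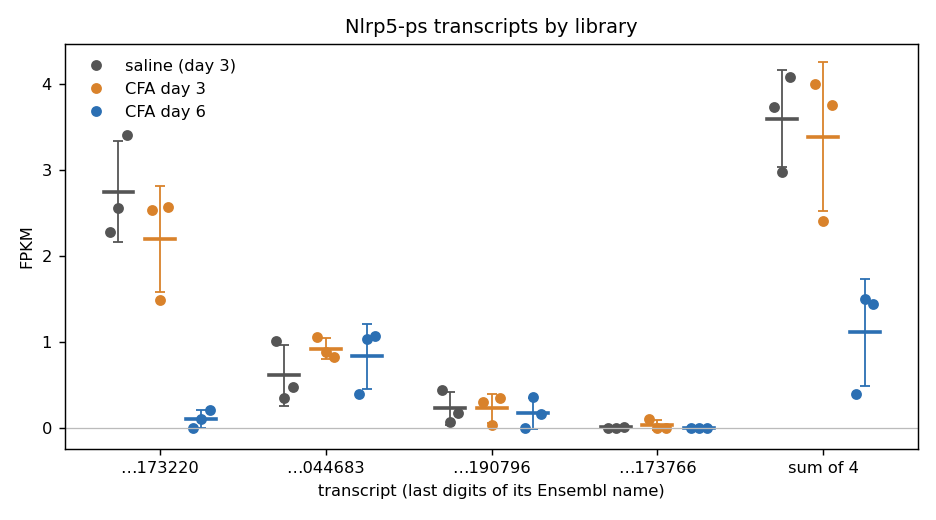
FPKM (vertical axis) of 4 Nlrp5-ps transcripts and of their sum in each library, with the mean (bar) and SD (n = 3). ENSMUST00000173220 is near 0 in the 3 CFA6D libraries, while ENSMUST00000044683 overlaps between the groups.

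Several calls came from genes with a pair of overlapping transcripts, and in Scp2-ps2 and Gm11960 the values of the pair moved in opposite directions. Scp2-ps2 is a copy of Scp2, which encodes a lipid carrier of peroxisomes. Its transcript ENSMUST00000072166 stood at 4.47, 3.78 and 3.92 FPKM in saline, at 0.00420, 4.66 and 0.00894 FPKM in CFA3D, and at 3.34, 3.43 and 3.77 FPKM in CFA6D. ENSMUST00000216438 was listed at 0 in saline and CFA6D and stood at 2.19, 0 and 3.03 FPKM in CFA3D. The CFA3D libraries in which the first was near 0 were those in which the second was detected, and 473 of the 478 exon bases of the first were shared with other transcripts of the gene.

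Both transcripts were called in CFA3D against saline and in CFA6D against CFA3D, the first with log2 differences of -3.45 ± 1.19 and 3.25 ± 1.19. No fold is given for the second, since it was compared with groups listed at 0. It reached the level limit of the set only through CFA3D, so that it had to differ, and its call supports nothing. Without CFA3D replicate 1 or without CFA3D replicate 3 these calls were lost, and that of the first transcript in CFA6D against CFA3D was also lost without CFA6D replicate 6. The gene sum of Scp2-ps2 was 4.06 ± 0.365 FPKM (SD, n = 3) in saline, 3.30 ± 1.26 in CFA3D and 3.52 ± 0.231 in CFA6D, and was not called.

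Gm11960 is a retrocopy of Gapdh, which encodes an enzyme of glycolysis, and aligned at 94.2% identity with 4 gaps, 2 of them not multiples of 3 bases. The window of 90 coding bases with the most differences is shown, from chr11:4563813-4563902 (plus) for Gm11960 and chr6:125163197-125163286 (minus) for Gapdh (GRCm38), as an example of a copy with scattered differences.
Gm11960: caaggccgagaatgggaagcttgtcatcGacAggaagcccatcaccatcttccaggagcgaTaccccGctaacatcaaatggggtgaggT
Gapdh: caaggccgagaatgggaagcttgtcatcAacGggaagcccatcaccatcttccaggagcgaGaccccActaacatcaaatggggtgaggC

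Its shorter transcript ENSMUST00000122068 stood at 3.20, 3.23 and 3.06 FPKM in saline, at 2.86, 0.0852 and 0.121 FPKM in CFA3D, and at 3.10, 3.67 and 4.32 FPKM in CFA6D. The longer ENSMUST00000181063, which contains all bases of the shorter, stood at 0.946, 1.80 and 1.65 FPKM in CFA3D and between 0.725 and 1.11 FPKM in the other libraries. CFA3D replicates 2 and 3, low in the shorter transcript, were thus the highest in the longer. The shorter transcript was called in CFA3D against saline (-2.72 ± 0.85) and in CFA6D against CFA3D (2.93 ± 0.85). The gene sum was 4.06 ± 0.256 FPKM in saline, 2.49 ± 1.14 in CFA3D and 4.61 ± 0.771 in CFA6D (SD, n = 3), with log2 differences of -0.77 and 0.94 that missed the fold limit. Gapdh itself was at 405 to 500 FPKM and was not called.

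Gm5641 is a retrocopy of Hnrnpa3, which encodes an RNA-binding protein of the nucleus, and its transcript ENSMUST00000198699 matched Hnrnpa3 over 1080 bases without a difference. The longer ENSMUST00000091130, which shares these bases, stood at 0.559, 0 and 0 FPKM in saline, at 0.514, 0.702 and 0.778 FPKM in CFA3D, and at 0.723, 0.664 and 0.762 FPKM in CFA6D. Saline replicate 1 overlapped with the CFA3D libraries. ENSMUST00000091130 was called higher on both days (2.01 ± 0.63 and 2.12 ± 0.63 against saline). The mean of ENSMUST00000198699 was 2.43 FPKM in saline, 2.60 in CFA3D and 2.68 in CFA6D, so the group means of the pair did not move in opposite directions. Within saline, ENSMUST00000198699 was lowest (1.90 FPKM) in replicate 1, the saline library in which the longer transcript was detected. The gene sum was 2.61 ± 0.149 FPKM in saline, 3.27 ± 0.0857 in CFA3D and 3.39 ± 0.223 in CFA6D (SD, n = 3), which was 0.31 and 0.36 higher on the log2 scale and not called.

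Gpx4-ps2, a copy of the antioxidant enzyme gene Gpx4, had a pair with opposite values in a single library, without being called. In saline replicate 2 its transcript ENSMUST00000214811 was at 0.590 FPKM and ENSMUST00000217344 at 42.2 FPKM, whereas in the 8 other libraries the first was at 24.6 to 33.4 FPKM and the second at 14.4 to 19.7 FPKM. Their sum was 42.8 FPKM in that library, within the range of 39.9 to 53.1 FPKM of all 9. Whether the division of reads between overlapping transcripts accounts for the calls in this group was not tested.

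**Figure D5:**
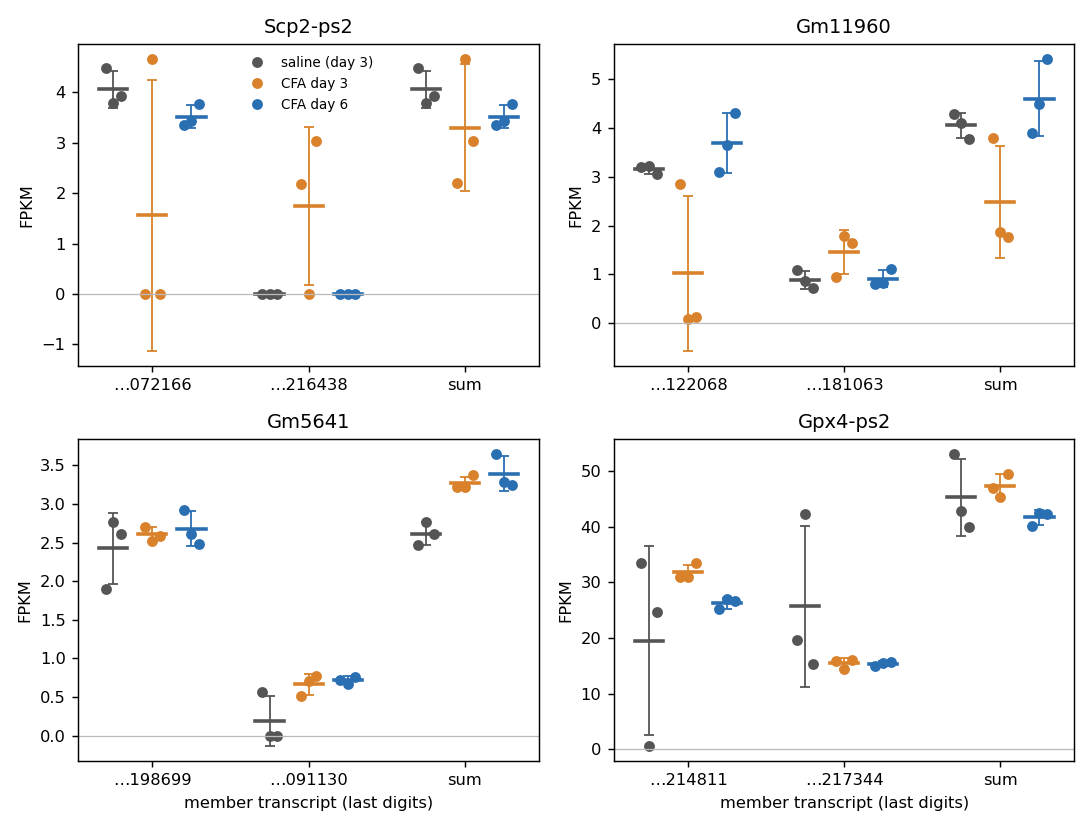
FPKM (vertical axis) of the member transcripts of Scp2-ps2, Gm11960, Gm5641 and Gpx4-ps2 and of their sum in each library, with the mean (bar) and SD (n = 3). In CFA3D the pairs of Scp2-ps2 and Gm11960 take opposite values, and in saline replicate 2 those of Gpx4-ps2 do.

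Gm7666 was the most abundant of the called transcripts, with a mean of 12.2 FPKM. It is a retrocopy of Phb, which encodes prohibitin of the inner mitochondrial membrane, and had 1 mismatch in 819 bases, with all 272 codons of Phb aligned and no stop gained. The windows, chr15:6654064-6654153 (plus) for Gm7666 and chr11:95671440-95671529 (plus) for Phb (GRCm38), show this mismatch in capitals, since most of the copy gives no means to tell its reads from those of Phb.
Gm7666: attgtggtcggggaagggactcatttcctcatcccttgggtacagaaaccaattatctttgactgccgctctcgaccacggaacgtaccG
Phb: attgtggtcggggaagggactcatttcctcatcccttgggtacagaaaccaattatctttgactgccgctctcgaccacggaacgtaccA

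Gm7666 stood at 17.4, 13.8 and 11.1 FPKM in saline, at 14.9, 13.8 and 16.4 FPKM in CFA3D, and at 5.82, 11.9 and 4.81 FPKM in CFA6D. CFA6D replicates 4 and 6 were low and replicate 5 lay among the other groups. The log2 difference of CFA6D from CFA3D was -1.10 ± 0.30 (limma adjusted p = 0.736), and the call was lost without CFA6D replicate 4 (-0.98) or without CFA6D replicate 6 (-0.84). Phb was at 24.0 to 32.6 FPKM in the 9 libraries and was not called. Gm7666 lies within Fyb, a gene of an adaptor protein of blood cells, and shares 231 of its bases with the Fyb transcript ENSMUST00000162154. That transcript stood at 14.8 and 12.4 FPKM in CFA6D replicates 4 and 6 and at 2.08 to 2.93 FPKM in the 7 other libraries, so it was high where Gm7666 was low.

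Gm13548 had a similar neighbour. It shares 293 of its 385 bases with a transcript of Stam2, which encodes a protein of receptor sorting. Gm13548 stood at 2.13, 1.46 and 1.75 FPKM in saline, at 1.70, 0.554 and 0.353 FPKM in CFA3D, and at 0.569, 1.11 and 1.80 FPKM in CFA6D, and was called lower in CFA3D (-1.20 ± 0.51). The call was kept without CFA3D replicate 1 and lost without any other of the 6 libraries compared (-1.77 to -0.78). The Stam2 transcript was at 1.20 and 0.313 FPKM in CFA3D replicates 2 and 3 and at 0.518 FPKM in CFA6D replicate 4. These were the libraries in which Gm13548 was lowest, and the Stam2 transcript was at 0.0257 to 0.115 FPKM elsewhere. The 5 called transcripts that share exon bases with a coding gene on the same strand also included Gm18190 and Gm49286. Their part in the calls was not tested.

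Pseudogenes of the Mrgpr receptors, a family of receptors of pain and itch neurons, gave 7 transcripts of 7 genes, with a median of 0.866 FPKM. Gm29479, 91.0% identical to Mrgprx1 over 455 bases with 40 mismatches and a gap that shifts the frame, was called lower in CFA6D. The window of 90 coding bases with the most differences is shown from chr7:47390899-47390988 (minus) for Gm29479 and chr7:48021825-48021914 (minus) for Mrgprx1 (GRCm38), to show that this copy differs from the coding gene at 12 bases there.
Gm29479: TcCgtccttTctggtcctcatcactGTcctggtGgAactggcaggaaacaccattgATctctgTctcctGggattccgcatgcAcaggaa
Mrgprx1: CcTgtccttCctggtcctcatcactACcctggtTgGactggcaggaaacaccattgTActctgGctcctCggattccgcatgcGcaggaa

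Gm29479 stood at 0.280, 0.263 and 0.240 FPKM in saline, at 0.341, 0.170 and 0.604 FPKM in CFA3D, and at 0.0993, 0.0544 and 0 FPKM in CFA6D. The CFA6D libraries lay below the others, at about 3.80 read pairs per library over all 9. The log2 difference was -1.31 ± 0.41 from saline (limma adjusted p = 0.691) and -1.59 ± 0.41 from CFA3D (limma adjusted p = 0.736). It was called in each fit that left out 1 library. It reached a mean of 0.1 FPKM only in saline and CFA3D, so its calls are not independent of the level limit. Mrgprx1, which encodes a receptor of itch-inducing peptides, was at 1.90 to 3.27 FPKM and was not called.

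Mrgprx3-ps was the most abundant of this family and was not called. It stood at 4.04, 3.65 and 3.04 FPKM in saline, at 5.14, 5.94 and 5.68 FPKM in CFA3D, and at 5.58, 4.64 and 4.26 FPKM in CFA6D, so the saline libraries lay below both CFA groups. The log2 differences from saline were 0.64 ± 0.16 on day 3 (limma adjusted p = 0.999) and 0.42 ± 0.16 on day 6 (limma adjusted p = 0.737). The sensory neuron markers summed to 1379 to 1827 FPKM in saline, 1756 to 2017 in CFA3D and 1769 to 2077 in CFA6D. A part of neuron content in the order of Mrgprx3-ps was not tested. The closest coding gene of Mrgprx3-ps, Mrgpra9 (89.5% identity), was at 0.0668 ± 0.0391 FPKM in saline, 0.189 ± 0.0681 in CFA3D and 0.168 ± 0.0596 in CFA6D (SD, n = 3). Its saline libraries again lay below the others, at few reads, and it was not called (limma adjusted p = 0.997 on day 3). The other members were Gm5734 (mean 1.81 FPKM), Gm7255 (1.06 FPKM), Mrgprc1-ps (0.866 FPKM), Gm18349 (0.697 FPKM) and Mrgprb12-ps (0.136 FPKM), and none of them was called.

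The remaining calls were of transcripts below 1 FPKM, apart from Gm49329. Gm7094, a copy of the centrin gene Cetn4, stood at 0, 0.0618 and 0 FPKM in saline, at 0.181, 0.186 and 0.222 FPKM in CFA3D, and at 0.158, 0.109 and 0.261 FPKM in CFA6D. It was called higher on both days (1.33 ± 0.36 and 1.20 ± 0.36) and the saline libraries lay below the others, at about 1.84 read pairs per library. It reached 0.1 FPKM only in the CFA groups, so its calls and this order of the libraries support nothing. The call on day 6 was also lost without CFA6D replicate 6 (0.98). The transcript ENSMUST00000221149 of Gm49329 stood at 0.850, 1.11 and 1.15 FPKM in saline, at 2.84, 1.80 and 2.25 FPKM in CFA3D, and at 1.34, 1.89 and 1.29 FPKM in CFA6D. It was called higher in CFA3D (1.07 ± 0.23), where its libraries lay above those of saline, and it shares 85.6% of its exon bases with other transcripts of its gene. The call was lost without saline replicate 1 or without CFA3D replicate 1. Another transcript of Gm49329, ENSMUST00000222523, was at 0 in CFA3D replicates 1 and 3, where the first was highest, and the gene sum (0.73) was not called.

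Also called in CFA3D against saline were Gm49286 (2.33 ± 0.87), Vmn1r-ps69 (1.36 ± 0.54), Gm18190 (1.12 ± 0.46) and 1700073E17Rik (1.01 ± 0.36) as higher, and Gm49699 (-1.58 ± 0.61) and Gm7240 (-1.03 ± 0.46) as lower, each in a single transcript. Gm49286 and Vmn1r-ps69 reached 0.1 FPKM only in CFA3D, so that they had to differ, and their calls support nothing. The called transcript of Gm49699 reached 0.1 FPKM only in saline and CFA6D, so its call is not independent of the level limit. The gene sums of Gm18190 (0.05), 1700073E17Rik (0.76) and Gm7240 (-0.67) were not called. Of the 6 fits that left out 1 library compared, the call of Gm18190 was kept only without saline replicate 1 and that of Gm7240 only without CFA3D replicate 3. Those of Vmn1r-ps69 and Gm49699 were lost without saline replicate 1, saline replicate 2 or CFA3D replicate 2, and also without CFA3D replicate 3 and CFA3D replicate 1, respectively. Those of Gm49286 and 1700073E17Rik were lost without saline replicate 3, CFA3D replicate 2 or CFA3D replicate 3. Gm49286 is only 102 bases long and stood high in CFA3D replicates 2 and 3 (1.45 and 2.67 FPKM) but not in replicate 1 (0.0528 FPKM). In CFA6D against saline, Gm8242 was called higher (1.39 ± 0.57), and Gm37313 (-1.10 ± 0.34) and AC133517.1 (-1.24 ± 0.45) were called lower. Gm8242 reached 0.1 FPKM only in the CFA groups, so its call supports nothing. The call was also lost without saline replicate 2 or 3 or CFA6D replicate 5 or 6. The call of Gm37313 was lost without saline replicate 1 or CFA6D replicate 6, and that of AC133517.1 without saline replicate 1 or 3 or CFA6D replicate 4. The called transcript of AC133517.1 reached 0.1 FPKM only in saline and CFA3D, so its call is not independent of the level limit. In CFA6D against CFA3D, Rpl19-ps3 was called lower (-1.49 ± 0.62), as was Gm49286 (-2.51 ± 0.87). The former call was lost without CFA3D replicate 1 or 2 or CFA6D replicate 4 or 5, and the latter without CFA3D replicate 2 or 3. The means of these low transcripts lay between 0.109 and 0.506 FPKM.

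Coding genes closest to the pseudogene transcripts gave few calls. Of 276 such genes 237 were expressed and tested as gene sums, and Serpina3i, a serine protease inhibitor gene and the closest match of Serpina3h, was the one called, higher in CFA3D (1.25 ± 0.31) and in CFA6D (1.06 ± 0.31) than in saline (limma adjusted p = 0.997 on day 3). Serpina3i stood at 0.701 ± 0.303 FPKM in saline, 1.73 ± 0.393 in CFA3D and 1.49 ± 0.194 in CFA6D (SD, n = 3). Over all 16110 gene sums of mRNA, 0.341%, 0.596% and 0.782% were called in CFA3D against saline, CFA6D against saline and CFA6D against CFA3D. The 23 tested genes that share a symbol with a pseudogene, and the 73 tested genes overlapping one on the same strand, gave 0 calls by the same rule in the 3 comparisons.

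The 67 genes with a symbol ending in ps are given by the role of the source gene. Copies of genes of translation and metabolism included the highest, in FPKM summed over transcripts and averaged over the 9 libraries. They were Gpx4-ps2 (44.7), Rps26-ps1 (35.1), Pisd-ps1 (24.6), Rpl10-ps1 (12.4), Rps2-ps10 (10.7), Rps15a-ps4 (8.80), Pisd-ps2 (6.07), Vdac3-ps1 (5.29), Scp2-ps2 (3.62) and Rps2-ps9 (1.77). Pisd encodes an enzyme that makes phosphatidylethanolamine in mitochondria, and Pisd-ps1 varied within groups, from 16.6 to 37.0 FPKM. At lower levels were Rpl19-ps3 (0.543), Rpl29-ps2 (0.513), Slc25a5-ps (0.333), Cyp4f41-ps (0.361), Cyp21a2-ps (0.351), Cyp2c52-ps (0.226) and Cyp4b1-ps2 (0.119).

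Copies of membrane, signalling and regulatory genes were Ywhaq-ps3 (24.0), Tmem181b-ps (16.7), Gpr137b-ps (14.4), Ppp4r1l-ps (7.53), Cd63-ps (6.38), Ube2d-ps (5.99), Usf2-ps1 (4.78), Mrip-ps (4.75), Bnip3l-ps (4.11), Tmem181c-ps (2.49), Ccnb2-ps (1.95), Apc-ps1 (1.76), Mid1-ps1 (1.08), Znf41-ps (0.964), Tgif2-ps2 (0.521), Alms1-ps2 (0.495), Alms1-ps1 (0.480), Aqp10-ps (0.430), Nxpe1-ps (0.351), Zfp-ps (0.228) and Zfa-ps (0.132). Hba-ps4, a copy of an alpha globin gene, was at 0.848 FPKM. By gene sums, Nlrp5-ps and Vmn1r-ps69 were the called genes among the 67.

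Copies of immune genes among these 67 lay below 1 FPKM, with Ccl19-ps1 (0.574) and Ccl19-ps3 (0.490), which resemble a chemokine gene that guides dendritic and T cells, Serpinb1-ps1 (0.414), Nlrp1c-ps (0.402), Ncr3-ps (0.338), Gsdmcl-ps (0.303), Ifi203-ps (0.221), H2-T-ps (0.205) and C4bp-ps1 (0.140). None of these was called. Pseudogenes named after olfactory and vomeronasal receptors gave 16 transcripts of 15 genes with a median of 0.291 FPKM and a highest mean of 0.565 FPKM. They were Olfr1372-ps1, Olfr1397-ps1, Olfr856-ps1, Olfr277-ps1, Olfr1556-ps1, Olfr289-ps1, Olfr755-ps1, Vmn2r-ps20, Vmn2r-ps19, Vmn2r-ps3, Vmn2r-ps18, Vmn2r-ps88, Vmn1r-ps136, Vmn1r-ps145 and Vmn1r-ps69. Olfr289-ps1 rested on CFA6D replicate 6, at 0.970 FPKM against at most 0.0583 FPKM elsewhere, and was not called.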

How the data were processed

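Transcript values of 9 TG libraries were analysed as the FPKM that the authors deposited, in the tables of other noncoding RNA and mRNA (2 tables, 0 per-sample columns left out). Per the paper's methods, the authors trimmed reads with Trimmomatic, mapped them to GRCm38 and measured expression in CLC Genomics Workbench. The submitters' processing notes name Bowtie 0.12.2 and another build, and the library kit is named as stranded in the methods and not in the labels, so the build, the counter behind the FPKM and the use of strand are not settled. The lncRNA table held none of these transcripts and was not used.

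Transcripts were joined by name to GENCODE M21, which matched 24532 of 24718 rows. Group differences were fitted on log2(FPKM + 0.1) in limma 3.58.1 (R 4.3.3), with the 3 groups, all 9 libraries, no covariate and a mean-variance trend. Rows whose mean reached 0.1 FPKM were tested, with Benjamini-Hochberg adjustment over all rows of the table tested. Gene sums add up the FPKM values of each gene within 1 table. Closest coding genes were found with blastn 2.17.0 (at least 100 bases and 80% identity). Tables and plots were made with pandas 2.3.3, numpy 2.4.6 and matplotlib 3.10.9 under Python 3.11.15, and the fit was tested on simulated data. An exact permutation test of 3 against 3 cannot go below p = 0.1, so none is given.

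Depth here means the read pairs behind the FPKM, not the raw reads that the paper reports. It was about 30.0 M to 42.2 M per library, so transcripts near 0.1 FPKM rest on few reads. It was estimated from the spacing of low values, which were not whole reads throughout, so no count test was run.

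The members, lists and tests were chosen with earlier results of these data known. The genes named are every called transcript, Nlrp5-ps, the 10 highest, every member gene with a symbol ending in ps, and the 3 transcripts nearest the limit on either side; closest coding genes and neighbours are named beside them, and other genes named were chosen after their values were seen.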

Additional observations from a re-analysis of the deposited data

Results flagged for a closer look

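The Nlrp5-ps transcript ENSMUST00000173220 differed between the days after CFA, as tested by CFA6D against CFA3D. It was at 2.54, 1.49 and 2.58 FPKM in CFA3D and at 0, 0.105 and 0.215 FPKM in CFA6D, a log2 difference of -3.59 (limma, Benjamini-Hochberg adjusted p = 0.0171), lower in 3 of 3 CFA6D libraries. Because Nlrp5-ps was named with earlier results of these data known, this p-value is not independent support. All 1294 exon bases of the transcript are shared with other transcripts of the gene, and ENSMUST00000044683 overlapped between the groups. The groups had 3 libraries each, and no outlier test was run. In the fits that left out 1 library the difference ranged from -3.97 to -3.14.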

How the results depend on the processing

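The numbers of called pseudogene transcripts were 13 in CFA3D against saline, 7 in CFA6D against saline and 8 in CFA6D against CFA3D, and changed with the settings. In that order they were 3, 1 and 6 with a pseudocount of 1, and 15, 10 and 13 with a pseudocount of 0.01. A mean of at least 1 FPKM gave 4, 1 and 4, no fold minimum gave 30, 26 and 26, and gene sums gave 5, 5 and 5. A mean of at least 10 approximate read pairs, chosen after seeing the data, gave 7, 2 and 5. Leaving out 1 library gave 10 to 16, 7 to 13 and 9 to 17, with 13 and 17 without CFA6D replicate 4. In CFA6D against saline leaving out any library but CFA6D replicate 6 gave 11 to 13, and CFA6D against CFA3D gave 14 without CFA6D replicate 6. The other settings (no filter, quantile normalization, only the groups compared, loci within 1 Mb excluded) gave counts within 1.5 times of these.

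Saline and CFA3D share replicate numbers, and same-numbered libraries had correlations of deviations of 0.0383, -0.0248 and 0.0586. Differently numbered libraries had -0.0812 to 0.0467. With 3 libraries in a group these values cannot settle whether the numbers mark pairs. The fit with the replicate block called 11. No paired analysis was possible for CFA6D because its replicate numbers occur in no other group. The differences of Nlrp5-ps ENSMUST00000173220 from saline and from CFA3D were called in all 13 settings run for each, 2 of the 28 differences called for which that held. Directions turned in gene sums for Scp2-ps2 ENSMUST00000216438 (-0.35 in CFA3D against saline and 0.15 in CFA6D against CFA3D) and for Nlrp5-ps ENSMUST00000044683 (-0.11 in CFA3D and -1.78 in CFA6D against saline), since a gene sum holds the other transcripts. The latter also turned to 0.17 in CFA6D against CFA3D without CFA6D replicate 4. Nlrp5-ps ENSMUST00000190796, not called, turned in CFA3D against saline to 0.00018 with a pseudocount of 1, to 0.41 without saline replicate 1 and to 0.54 without CFA3D replicate 2. It turned in CFA6D against saline to 0.086 without saline replicate 1 and to 0.24 without CFA6D replicate 4, and in CFA6D against CFA3D to 0.0030 without CFA3D replicate 3 and to 0.27 without CFA6D replicate 4. Over all fits that left out 1 library, ENSMUST00000190796 ranged from -0.43 to 0.54 in CFA3D against saline, from -0.85 to 0.24 in CFA6D against saline and from -0.89 to 0.27 in CFA6D against CFA3D, and ENSMUST00000044683 from -0.44 to 0.17 in CFA6D against CFA3D. The cause was not tested.

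Depth limits what can be said of the 207 transcripts with fewer than 10 read pairs. Identity limits the aligned bases of the 128 transcripts whose closest coding gene was at least 99% identical there. Of these, 94 were aligned over at least 90% of their length.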
